A study of Mus musculus with 4 samples.

Results

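The clustered protocadherins are a family of cell surface adhesion genes that lie side by side in the alpha, beta and gamma clusters of mouse chromosome 18. Members were all genes whose symbol begins with Pcdha, Pcdhb or Pcdhg followed by a number, or by a, b or c and a number, which gave 58 of the 56980 genes in the files. They comprised 14 alpha genes (2 of them C-type), 22 beta genes and 22 gamma genes (12 of type A, 7 of type B and 3 of type C). On GRCm39 the alpha cluster lay on chromosome 18 from 37063237 to 37320716, the beta cluster from 37397991 to 37657532 and the gamma cluster from 37794846 to 37975014, all on the plus strand.

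Single-cell RNA-seq was performed on Epcam+α6+ epithelial cells sorted from mouse dorsal skin at E16.5, in 2 Ctrl and 2 TKO libraries. Ctrl embryos were Suv39h1 f/f, Suv39h2-/- and Setdb1 f/f without K14CreERT2. TKO (triple knockout) embryos carried the same alleles with K14CreERT2, and both groups received Tamoxifen, so the loss of Suv39h2 was shared by all 4 libraries. These 3 genes encode methyltransferases that deposit H3K9me3, a histone mark of silent chromatin. K14CreERT2 is a recombinase that Tamoxifen switches on and that the Krt14 promoter restricts to keratinocytes, and the study describes its action as mosaic. A fibroblast or immune cell in a TKO library is therefore not a targeted cell. The question was how the level of each clustered protocadherin gene differed between TKO and Ctrl in each class of keratinocyte.

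Clustered protocadherins are homophilic adhesion molecules: a cell displays a combination of isoforms and recognises the same combination on a neighbour. They are best known in neurons, where each cell activates a few promoters through CTCF and cohesin, which loop a distal enhancer to the chosen first exon. Each alpha or gamma gene has its own large first exon, coding for the outer and transmembrane parts, and all genes of a cluster share the last 3 exons, coding for the inside tail. A beta gene is in essence 1 large exon, with no shared tail. The C-type genes at the downstream ends of the alpha and gamma clusters are chosen less randomly than the others and are widely active.

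This structure limits what the counts can show. The kit reads the 3' end of transcripts, and a read in the shared exons of the alpha or gamma genes cannot be given to 1 gene. Per GENCODE vM39, the share of a gene's exonic bases that no other gene on that strand used had a median of 46.4% (8.56 to 60.7%) for alpha genes and 54.4% (32.6 to 67.8%) for gamma genes. For beta genes the median was 100%, and the lowest value was 90.3%, in Pcdhb21, whose end overlaps the beginning of Pcdhb22. On this annotation only a read in the private part of an alpha or gamma gene can be given to that gene. The annotation release and the handling of intronic reads were not given, so where these UMIs lay was not checked. A beta gene has its own 3' end, so beta and gamma UMIs need not stand for the same part of a transcript. Neighbouring paralogs with near-identical stretches remain uncertain. For the same reason levels were compared between libraries, and UMI totals or shares given for several genes or families do not rank their expression.

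The 4 libraries held 3804 to 5785 barcodes and 70749496 to 89655247 UMIs (unique molecular identifiers, each standing for 1 captured molecule), and 39 barcode sequences occurred in more than 1 library. After filtering, 2842 and 2989 Ctrl and 1562 and 1791 TKO cells were keratinocytes, with median UMIs per cell of 21963 and 17329 in Ctrl and 30072.5 and 28052 in TKO. Levels are given as UMIs per 1000000 UMIs (CPM) of the summed cells of a library, and differences as log2 of TKO over Ctrl ± SE. Epcam stood at 179 to 255 CPM and Itga6, which encodes α6 integrin, at 317 to 374 CPM in the keratinocytes of the 4 libraries. Setdb1 had 67.9 and 58.2 CPM in Ctrl and 39.5 and 42.5 CPM in TKO keratinocytes (log2 difference -0.64 ± 0.13, edgeR quasi-likelihood adjusted p = 0.0472), and this call was lost without Ctrl replicate 1 (-0.50), Ctrl replicate 2 (-0.76) or TKO replicate 1 (-0.55). Suv39h1 had 24.4 and 25.2 CPM in Ctrl and 24.8 and 19.99 CPM in TKO, and Suv39h2 had 14.0 and 17.1 against 22.6 and 16.02 CPM, and neither was called. UMIs at the 3' end need not cover the deleted exons, so these levels do not measure the deletions.

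In keratinocytes as a whole, 7 of the 22 beta genes fell and 7 of the 19 type A and B genes of the gamma cluster rose in TKO, while no C-type gamma gene was called. Of the 35 members that had enough UMIs to be tested, 7 rose and all 7 were gamma A or B genes. Over all 19952 genes tested, 4.22% were called raised. A further 7 members fell and all 7 were beta genes, against 2.56% of all genes called lowered. The median log2 difference was -2.02 over the 13 beta genes tested, 1.45 over the 19 gamma A and B genes and 0.31 over the 3 C-type gamma genes, against -0.02 over all genes. Some beta genes passed the count filter through the Ctrl libraries alone. Pcdhb12, for example, had 13 and 13 UMIs in Ctrl and 2 and 1 UMIs in TKO. The beta median therefore describes only the genes that passed. With n = 2 libraries per genotype, leaving out 1 library leaves a group of 1. The spread then comes from the other genotype alone. A call lost in such a fit, of a member or of another gene, does not by itself show dependence on that library. Leaving out each library, the log2 difference ranged from 1.48 to 1.58 for Pcdhga10, from -4.09 to -3.15 for Pcdhb11 and from -2.62 to -1.58 for Pcdhb21. Each of the 14 called genes kept its direction in keratinocytes in every alternative that gave it a value. These were 16 alternatives for Pcdhb7, Pcdhb11 and Pcdhgb2 and 17 for the other called genes.

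**Figure D1:**
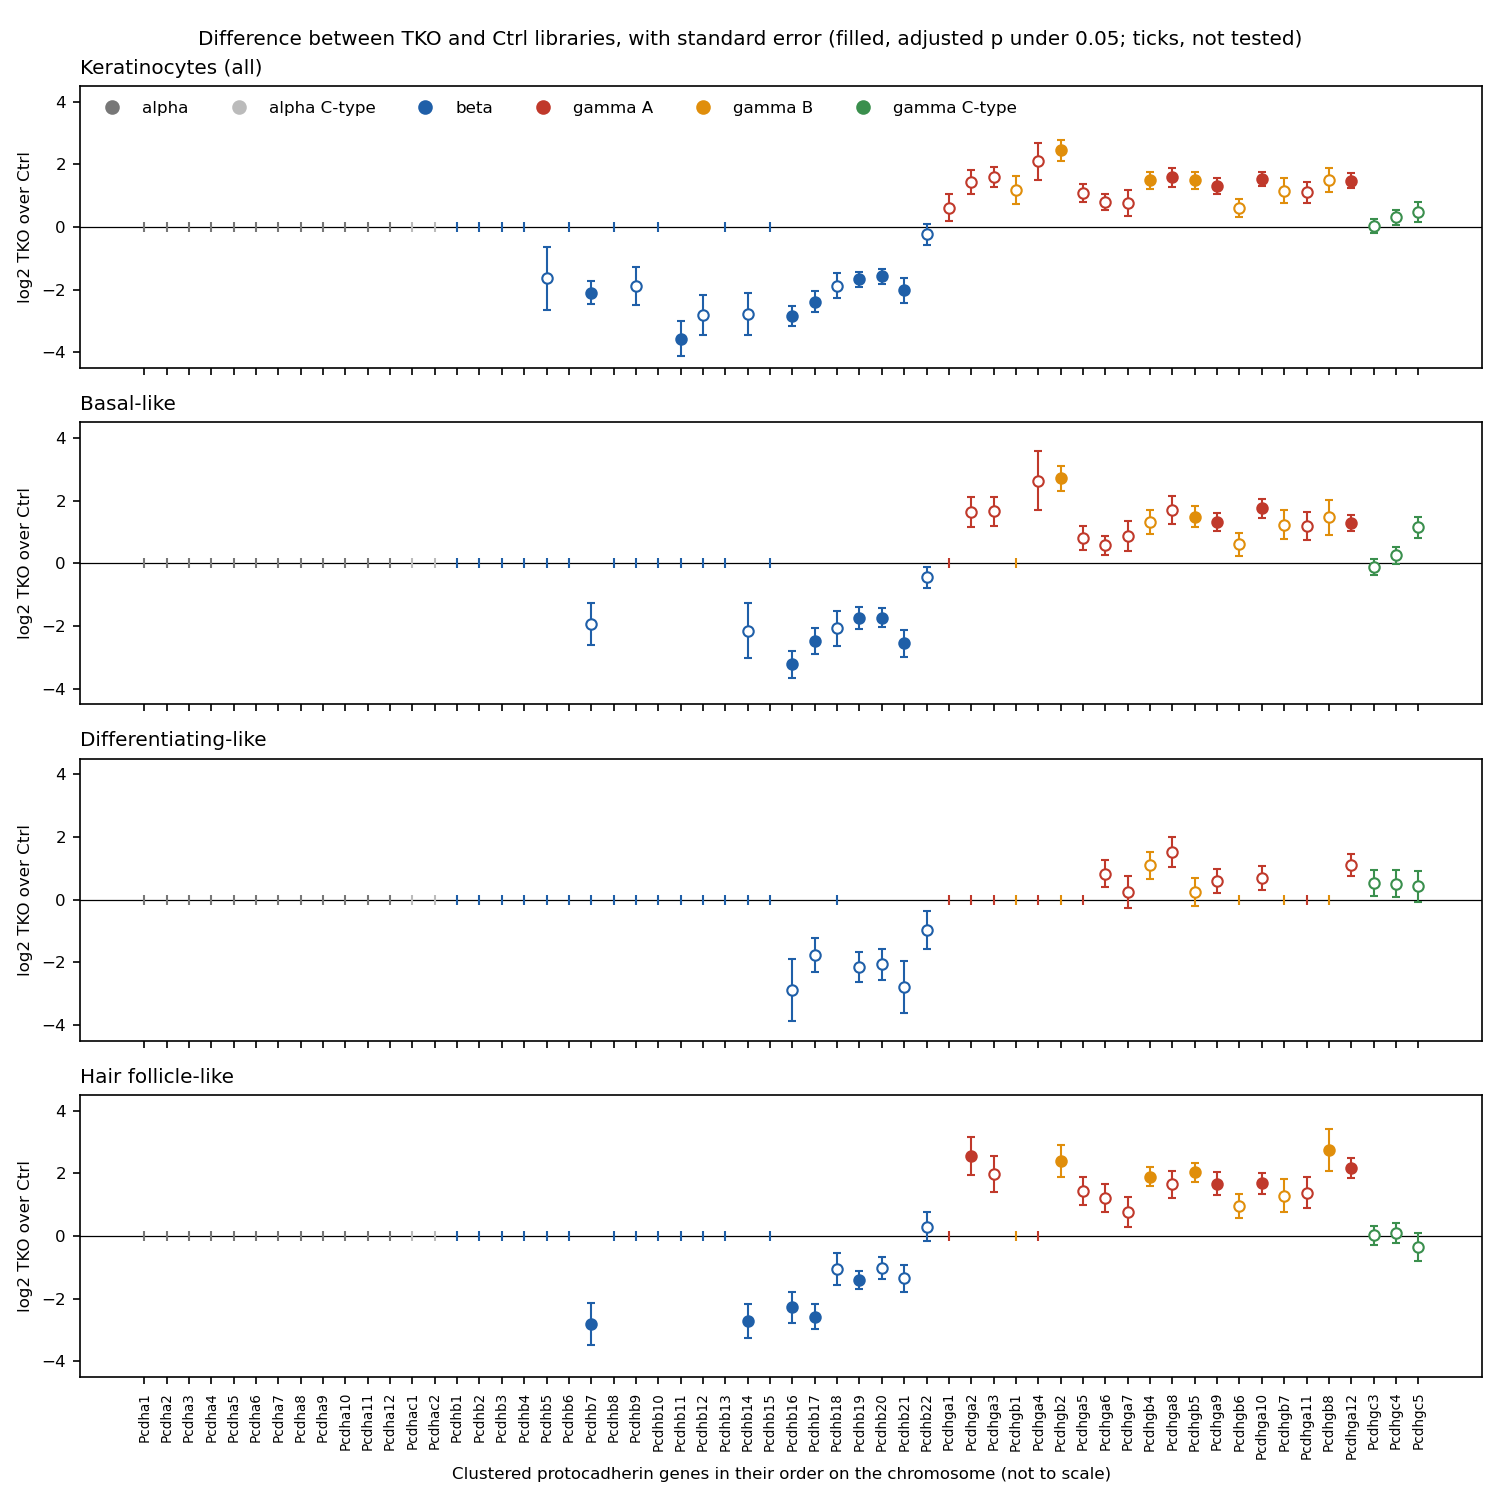
Log2 difference between TKO and Ctrl libraries (y axis, bars are standard errors) for the 58 genes in chromosomal order (x axis), in all keratinocytes and in 3 classes. Filled points have an adjusted p under 0.05, open points were tested and not called, and ticks on the zero line were not tested. In keratinocytes all 13 tested beta genes lie below 0 and all 19 gamma A and B genes above it. Some of these beta genes passed the count filter through the Ctrl libraries alone.

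Among the beta genes, Pcdhb16 had 2.46 and 1.97 CPM in the Ctrl libraries and 0.364 and 0.258 CPM in the TKO libraries. Both Ctrl values lay above both TKO values, and the log2 difference was -2.85 ± 0.32 (adjusted p = 0.0127). Pcdhb17 had 2.30 and 2.09 CPM in Ctrl and 0.325 and 0.517 CPM in TKO, a log2 difference of -2.39 ± 0.33 (adjusted p = 0.021), which was -1.74 (adjusted p = 0.0722) at 5000 UMIs per cell. Pcdhb19 had 3.62 and 3.44 CPM against 1.01 and 1.22 CPM (-1.67 ± 0.24, adjusted p = 0.0232). These 3 genes lie close together in the downstream part of the beta cluster, with Pcdhb18 between them, which was not called (-1.87 ± 0.40, adjusted p = 0.0541). Pcdhb20 fell from 2.39 and 2.37 CPM to 0.766 and 0.849 CPM (-1.57 ± 0.25, adjusted p = 0.0276). Pcdhb21 fell from 1.74 and 1.501 CPM to 0.268 and 0.535 CPM (-2.02 ± 0.41, adjusted p = 0.0484), and its log2 difference was -2.62 without TKO replicate 2. The groups did not overlap for either gene, and TKO replicate 1 was the lower TKO library in both.

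The other called beta genes lie further upstream and had fewer UMIs. Pcdhb7 had 48 and 38 UMIs in Ctrl and 9 and 8 UMIs in TKO keratinocytes (log2 difference -2.10 ± 0.37, adjusted p = 0.0352). Pcdhb11 had 23 and 21 UMIs in Ctrl and 2 and 1 UMIs in TKO, which is the largest difference among the members (-3.56 ± 0.57, adjusted p = 0.029). Pcdhb14 had 78 and 90 UMIs in Ctrl against 18 and 3 UMIs in TKO and was not called (-2.78 ± 0.67, adjusted p = 0.0717), the TKO libraries being far apart from each other. The 6 tested beta genes that were not called had log2 differences between -2.81 and -0.23 and adjusted p-values from 0.0541 to 0.719. The other 9 beta genes had 0 to 24 UMIs each over all 4 libraries and were not tested.

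Pcdhb22, the last gene of the beta cluster, is described here because of its values. It had 1.57 and 1.38 CPM in Ctrl and 0.957 and 1.57 CPM in TKO, so the groups overlapped, and its log2 difference was -0.23 ± 0.34 (adjusted p = 0.719). Whether Pcdhb22 differs from the other beta genes was not tested. Its first bases overlap the end of Pcdhb21 on the same strand.

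Among the gamma genes, Pcdhga12, the last of the A type, had 1.96 and 1.80 CPM in Ctrl and 4.65 and 5.91 CPM in TKO keratinocytes. It rose by 1.48 ± 0.24 on the log2 scale (adjusted p = 0.0299). Pcdhga10 rose from 1.08 and 1.05 CPM to 3.22 and 3.01 CPM (1.53 ± 0.23, adjusted p = 0.0239). Both TKO libraries lay above both Ctrl libraries for each of these genes. Pcdhga9 had 1.36 and 1.36 CPM in Ctrl and 2.93 and 3.82 CPM in TKO (1.30 ± 0.26, adjusted p = 0.0463). Pcdhga8 had 0.396 and 0.401 CPM in Ctrl and 1.11 and 1.31 CPM in TKO (1.58 ± 0.30, adjusted p = 0.0428). The 2 Ctrl libraries differed little from each other in both genes.

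The type B genes are interspersed with the A genes and differ from them in sequence. Pcdhgb2 showed the largest rise among the members, from 0.205 and 0.314 CPM in Ctrl to 1.53 and 1.33 CPM in TKO (2.45 ± 0.34, adjusted p = 0.0209). Pcdhgb5 rose from 1.48 and 1.36 CPM to 3.35 and 4.73 CPM (1.49 ± 0.28, adjusted p = 0.0397), and Pcdhgb4 from 1.35 and 1.03 CPM to 3.08 and 3.67 CPM (1.49 ± 0.27, adjusted p = 0.038). The 12 gamma A and B genes that were not called had log2 differences between 0.61 and 2.09 and adjusted p-values from 0.0514 to 0.437. No gamma gene was left untested in keratinocytes.

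**Figure D2:**
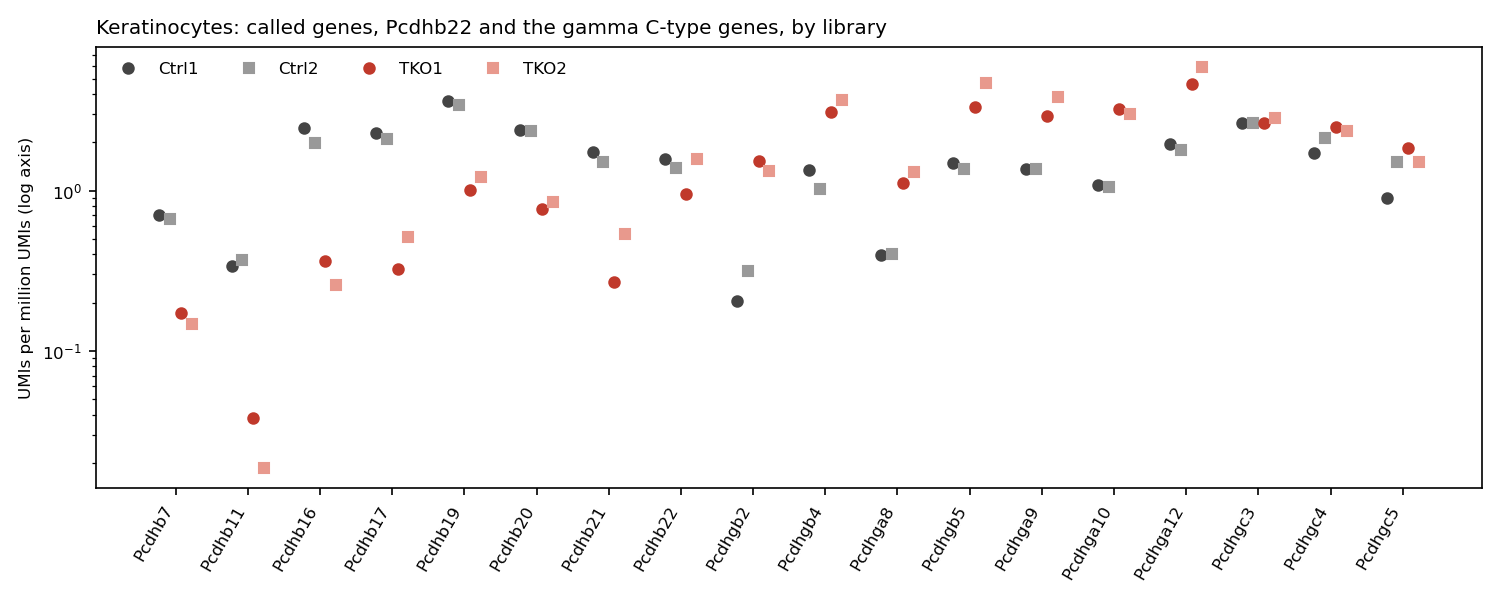
UMIs per 1000000 UMIs on a log axis (y) in the keratinocytes of each library for the 14 called genes, Pcdhb22 and the 3 C-type gamma genes (x, in chromosomal order). Grey symbols are Ctrl and red symbols TKO libraries; the symbols separate downwards for the called beta genes, upwards for the called gamma genes and mix for Pcdhb22.

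The C-type gamma genes lie directly downstream of Pcdhga12 and end in the same shared exons. Pcdhgc3 had 2.65 and 2.65 CPM in Ctrl and 2.66 and 2.82 CPM in TKO (log2 difference 0.03 ± 0.21, adjusted p = 0.944). Pcdhgc4 had 1.73 and 2.15 CPM against 2.49 and 2.34 CPM (0.31 ± 0.23, adjusted p = 0.471), and Pcdhgc5 had 0.894 and 1.501 CPM against 1.86 and 1.51 CPM (0.48 ± 0.33, adjusted p = 0.421). The TKO values of Pcdhgc3 exceeded the Ctrl values by less than its standard error. That none of the 3 was called does not show that they were equal between the genotypes.

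The alpha genes were close to undetected. Their 14 genes had 8 and 2 UMIs in Ctrl and 6 and 6 UMIs in TKO keratinocytes in all, 5 of them had 0 UMIs in every library, and none could be tested. Pcdha5 had 5 UMIs in all, and Pcdha1 and Pcdha11 had 4 each. A difference in the alpha cluster was therefore not detectable at this depth, and transcripts counted nowhere because they end in the shared exons are not included.

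Summed over genes, the make-up of the clustered protocadherin UMIs differed between the genotypes. In Ctrl keratinocytes the beta genes held 47.0 and 47.8% of all members' UMIs, the gamma A and B genes 39.1 and 34.9% and the C-type gamma genes 13.6 and 17.1%. In TKO keratinocytes the beta genes held 10.6 and 11.5%, the gamma A and B genes 73.3 and 74.99% and the C-type gamma genes 15.9 and 13.3%. The members' UMIs in all numbered 2643 and 2106 in Ctrl and 2305 and 2727 in TKO keratinocytes. The summed beta level was 18.2 and 17.6 CPM in Ctrl against 4.67 and 5.80 CPM in TKO, 3.42-fold lower in TKO by the group means. The summed gamma A and B level was 15.2 and 12.8 CPM against 32.3 and 37.8 CPM, 2.50-fold higher in TKO. The gamma C-type sum was 5.28 and 6.30 CPM against 7.00 and 6.68 CPM. No test was run on the sums, since the genes that make them up were tested singly.

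**Figure D3:**
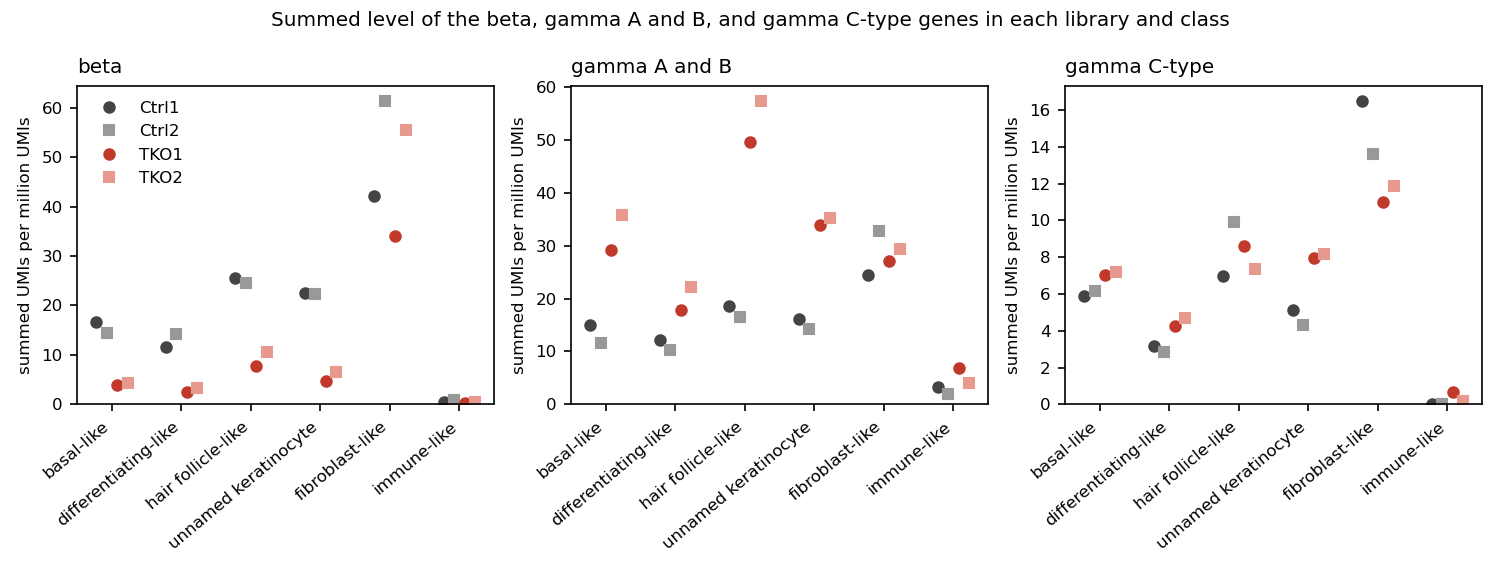
Summed UMIs per 1000000 UMIs (y axis, a linear scale from 0) of the beta, gamma A and B, and gamma C-type genes in each library, by class of cells (x axis). In each class of keratinocyte both TKO libraries lie below both Ctrl libraries for beta and above them for gamma A and B, whereas the fibroblast-like values of the genotypes overlap for these 2 sums and not for gamma C-type.

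The other cells in the same libraries gave a reference outside the K14CreERT2 lineage. In fibroblast-like cells, 104 and 104 in Ctrl and 183 and 126 in TKO, the summed beta level was 42.1 and 61.3 CPM in Ctrl and 34.0 and 55.5 CPM in TKO. Their gamma A and B sum was 24.4 and 32.7 CPM in Ctrl and 27.0 and 29.4 CPM in TKO. The genotypes overlapped for both sums. Their gamma C-type sum did not overlap, at 16.48 and 13.6 CPM in Ctrl and 10.98 and 11.9 CPM in TKO, on 20 to 41 UMIs per library, and the difference between fibroblast-like cells and keratinocytes was not tested. In immune-like cells the beta genes had 1 to 4 UMIs in each library, and the gamma A and B sum was 3.33 and 1.92 CPM in Ctrl and 6.85 and 4.12 CPM in TKO, on 4 to 41 UMIs. The immune-like gamma A and B sums did not overlap either and were 2.09-fold higher in TKO by the group means, in cells that K14CreERT2 does not target; no test was run on them.

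Marker genes of other cell types moved with genotype in the keratinocyte sums. The Merkel cell list fell in 6 of its 8 genes, from 172 and 154 CPM in Ctrl to 6.62 and 4.80 CPM in TKO when summed, and every gene of the list had UMIs. The Merkel-like cluster held 33 and 24 Ctrl and 15 and 12 TKO cells, but its Merkel list summed to 19574 and 22240 CPM in the Ctrl cells and to 56.4 and 174 CPM in the TKO cells, whose Atoh1, Isl1, Pou4f3 and Ccer2 were at 0. The TKO cells of the cluster therefore did not bear out its name, and the genotypes were not compared within it. Its Ctrl cells had a summed beta level of 120.5 and 58.2 CPM, on 69 and 21 UMIs. Without this cluster, an alternative chosen after seeing the data, 6 members were raised and 6 lowered in keratinocytes. The calls lost were Pcdhb21 (log2 difference -1.97, adjusted p = 0.0521) and Pcdhga9 (1.30, adjusted p = 0.0535). The fibroblast list summed to 930 and 1125 CPM in Ctrl and 967 and 837 CPM in TKO with 0 of 7 genes called, and the immune list to 4.43 and 6.98 CPM against 12.4 and 16.4 CPM with 0 of 7 called. The neuron list fell in 2 of its 6 genes, from 11.6 and 9.39 CPM in Ctrl to 2.41 and 3.12 CPM in TKO, and the endothelial list rose in 2 of its 6 genes, from 13.03 and 15.9 CPM to 32.1 and 22.9 CPM, with UMIs for every gene of both lists. The melanocyte list had 1 of 6 genes raised, the basal list 2 of 9 lowered and the hair follicle list 2 raised and 3 lowered of 10. With no gene called, the Schwann cell list had 58.6 and 58.5 CPM in Ctrl against 35.3 and 45.1 CPM in TKO. The differentiating list had 17899 and 10458 against 4223 and 10449 CPM, also with no gene called. The part of these signals in the result was not tested. The immune-like cells held less beta, gamma A and B and gamma C-type signal per 1000000 UMIs than the keratinocytes of the same library, whereas their alpha genes had 0 and 0 UMIs in Ctrl and 3 and 5 UMIs in TKO.

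Keratinocytes were then separated into classes, since their proportions differed between libraries. The classes rest on components aligned between libraries by Harmony. Without alignment 3 of 21 clusters were at least 90% TKO cells and 3 at least 90% Ctrl cells. These TKO clusters took 43.6 and 14.8% of the TKO cells called basal-like, 48.3 and 72.7% of those called differentiating-like and 35.0 and 11.0% of those called hair follicle-like, and under 1% of the Ctrl cells of each class. The Ctrl clusters took 41.5 and 36.4% of the differentiating-like Ctrl cells. A class thus compares cells that stood partly apart by genotype before alignment, and the part of this in the result was not tested. With classes named without alignment, 4 members were raised and 1 lowered in basal-like cells, 6 and 1 in hair follicle-like cells and 0 and 0 in differentiating-like cells. The share of all genes called in those fits is not given here.

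In basal-like cells, the proliferative layer on the basement membrane (1302 and 1531 Ctrl, 907 and 823 TKO cells), 29 members were tested. Of these 5 rose, all gamma A or B genes, against 6.88% of all genes, and 5 fell, all beta genes, against 3.93% of all genes. Pcdhgb2 had 6 and 6 UMIs in Ctrl and 43 and 33 UMIs in TKO (2.72 ± 0.40, adjusted p = 0.0137). Pcdhga10, Pcdhga12, Pcdhga9 and Pcdhgb5 rose by 1.29 to 1.75 on the log2 scale, Pcdhga12 having the smallest of these rises and Pcdhga10 the greatest. Pcdhb16 had 56 and 54 UMIs in Ctrl and 8 and 3 UMIs in TKO (-3.23 ± 0.44, adjusted p = 0.0109), and it was -3.88 without TKO replicate 1. Pcdhb17, Pcdhb19, Pcdhb20 and Pcdhb21 fell as well, Pcdhb21 most (-2.55 ± 0.44, adjusted p = 0.0196; -3.18 at Leiden resolution 2) and Pcdhb20 least (-1.73 ± 0.31, adjusted p = 0.0225). All 10 genes called here were also called in the keratinocyte sums, which contain these cells. Among the marker lists of other cells, the endothelial list rose in 1 of its 6 genes, from 17.6 and 18.4 CPM in Ctrl to 38.5 and 25.4 CPM in TKO when summed, and the Schwann cell list fell in 1 of its 6 genes, from 46.3 and 50.9 to 30.5 and 31.4 CPM. The Merkel list fell in 2 of its 8 genes, at 3.87 and 3.502 against 3.24 and 1.52 CPM, and the differentiating list had 1 gene raised and 2 lowered of 9, at 1148 and 906 against 443 and 701 CPM. The melanocyte list had 1 gene raised, the basal list 2 of 9 lowered and the hair follicle list 1 raised and 2 lowered of 10. Their part in the result was not tested. Genes of the stress response were among the 10 leading genes of 2 basal-like clusters, Fosl1 and Cxcl10 in the one (201 and 480 Ctrl, 189 and 72 TKO cells) and Atf3 and Cxcl10 in the other (72 and 175 Ctrl, 133 and 66 TKO cells). Haemoglobin genes led a further basal-like cluster of 390 cells, in which 1 cell of Ctrl replicate 2 held 12963 UMIs of the erythroid list and no other cell more than 3. The basal list stood at 14273 to 19475 CPM in that cluster. Without it, an alternative chosen after seeing the data, the same 10 genes were called in basal-like cells and the same 14 in keratinocytes. Leaving out each library, Pcdhb16 ranged from -3.88 to -2.83 and Pcdhgb5 from 1.07 to 1.83 in basal-like cells.

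None of the C-type gamma genes was called in basal-like cells. Pcdhgc5 had 0.774 and 0.771 CPM in Ctrl and 1.99 and 1.44 CPM in TKO (1.16 ± 0.33, adjusted p = 0.0784). Pcdhgc3 had 3.10 and 2.98 CPM against 2.50 and 3.04 CPM (-0.12 ± 0.26, adjusted p = 0.797), so its groups overlapped, and Pcdhgc4 had 2.01 and 2.42 CPM against 2.53 and 2.71 CPM (0.25 ± 0.27, adjusted p = 0.591). Differences between these genes were not tested.

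In hair follicle-like cells, which carry the appendage programme (554 and 687 Ctrl, 297 and 435 TKO cells), 28 members were tested. Here 8 rose, all gamma A or B genes, against 6.01% of all genes, and 5 fell, all beta genes, against 4.97% of all genes. Pcdhga12 had 2.05 and 1.59 CPM in Ctrl and 6.45 and 9.51 CPM in TKO (2.17 ± 0.32, adjusted p = 0.00715). Pcdhgb5 had 1.84 and 1.52 CPM against 5.67 and 7.76 CPM (2.03 ± 0.31, adjusted p = 0.00792), and Pcdhgb4 had 1.27 and 1.36 CPM against 4.79 and 4.83 CPM (1.90 ± 0.31, adjusted p = 0.00957), the difference of Pcdhgb4 being 3.68 at 5000 UMIs per cell. Both TKO libraries stood well above both Ctrl libraries for each of these genes. Pcdhga9, Pcdhga10 and Pcdhgb2 also rose, as they did in basal-like cells. Pcdhga2 had 3 and 4 UMIs in Ctrl and 21 and 13 UMIs in TKO (2.55 ± 0.60, adjusted p = 0.0353), and Pcdhgb8 had 3 and 1 UMIs against 11 and 12 UMIs (2.74 ± 0.67, adjusted p = 0.0397). Neither was called in the keratinocyte sums, where Pcdhga2 had a log2 difference of 1.45 ± 0.39 (adjusted p = 0.0881) and Pcdhgb8 one of 1.501 ± 0.40 (adjusted p = 0.0851).

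The beta genes that fell in hair follicle-like cells were Pcdhb7, Pcdhb14, Pcdhb16, Pcdhb17 and Pcdhb19. Pcdhb17 had 48 and 41 UMIs in Ctrl and 5 and 7 UMIs in TKO (-2.57 ± 0.39, adjusted p = 0.00779). Pcdhb14, not called over all keratinocytes, had 23 and 27 UMIs in Ctrl and 4 and 2 UMIs in TKO (-2.71 ± 0.55, adjusted p = 0.0218), and its difference was -3.40 without TKO replicate 1. Pcdhb7 had 16 and 20 UMIs in Ctrl and 3 and 1 UMIs in TKO (-2.80 ± 0.66, adjusted p = 0.0353) and ranged from -3.85 without TKO replicate 1 to -2.09 without TKO replicate 2. Pcdhb16 fell by 2.27 on the log2 scale and by 1.62 without Ctrl replicate 1. Pcdhb22 had 2.40 and 1.52 CPM in Ctrl and 1.47 and 3.17 CPM in TKO (0.30 ± 0.46, adjusted p = 0.73), and it was the tested beta gene with a value above 0. Among the raised genes, Pcdhgb2 moved from 2.40 to 3.14 without Ctrl replicate 2 and Pcdhgb8 from 2.74 to 3.62 without Ctrl replicate 1. Leaving out each library, Pcdhga12 ranged from 1.85 to 2.43 and Pcdhb17 from -2.67 to -2.47 in this class. The immune marker list rose in 3 of its 7 genes in this class, from 11.9 and 16.53 CPM to 33.4 and 40.1 CPM summed. The Merkel list fell in 3 of its 8 genes, from 7.70 and 43.3 CPM to 2.93 and 0.951 CPM, and the Schwann cell list in 1 of its 6 genes, from 39.9 and 47.4 CPM to 19.4 and 22.02 CPM. The melanocyte list, with 1 of its 6 genes raised and 1 lowered, summed to 25.4 and 39.7 against 11.1 and 14.3 CPM. The fibroblast and neuron lists had 1 gene lowered each and the endothelial list 1 gene raised. Among the keratinocyte lists, the basal list had 3 of 9 genes lowered, the hair follicle list 2 raised and 3 lowered of 10, and the differentiating list 1 raised and 1 lowered of 9, at 451 and 341 CPM in Ctrl and 136 and 255 CPM in TKO. The part of these signals in the result was not tested.

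In differentiating-like cells, the layers above the basal one (788 and 538 Ctrl, 207 and 399 TKO cells), none of the 17 members tested was called by edgeR, against 1.79% of all genes raised and 0.886% lowered. Their adjusted p-values ranged from 0.0788 to 0.476 for the beta genes and from 0.17 to 0.858 for the gamma A and B genes. DESeq2 called 0 raised and 1 lowered. TKO replicate 1 had 207 of these cells, the fewest of the 4 libraries. Pcdhb19 had 45 and 21 UMIs in Ctrl and 4 and 5 UMIs in TKO (-2.14 ± 0.46, adjusted p = 0.0788), and Pcdhga12 had 35 and 23 UMIs in Ctrl and 23 and 61 UMIs in TKO, or 1.65 and 2.04 against 3.38 and 4.75 CPM (1.11 ± 0.35, adjusted p = 0.174). All 6 tested beta genes had values below 0 and all 8 tested gamma A and B genes values above 0, with medians of -2.10 and 0.77. A gene could pass the count filter through 1 genotype alone, as Pcdhb16 did with 23 and 15 UMIs in Ctrl and 3 and 0 UMIs in TKO. In this class 16 beta and 11 gamma A and B genes were not tested. The signs and medians therefore describe the genes that passed and are no separate support. Summed marker lists differed between the genotypes in this class. With no gene called, the immune list had 2.08 and 2.58 CPM in Ctrl against 5.44 and 7.87 CPM in TKO, the melanocyte list 5.76 and 5.78 against 18.1 and 11.1 CPM and the endothelial list 6.19 and 9.51 against 25.7 and 10.3 CPM. The differentiating list itself stood at 54746 and 48927 against 28907 and 41418 CPM, also with no gene called, and 1 of the 9 genes of the basal list fell. Their part in the result was not tested. The member that DESeq2 called was Pcdhb14. Without the expression filter 6 members were called lowered (Pcdhb14, Pcdhb16, Pcdhb17, Pcdhb19, Pcdhb20 and Pcdhb21) and 0 raised.

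Whether the genotype effect differed between classes was tested directly, as an interaction with the library as a block. Between differentiating-like and basal-like cells 0 of 29 members were called, against 0.875% of all genes. The smallest adjusted p was 0.188, for Pcdhgb5, whose log2 difference was lower by 1.28 ± 0.42 in differentiating-like cells. Between hair follicle-like and basal-like cells 0 of 30 members were called, against 2.09% of all genes. The smallest adjusted p was 0.209, for Pcdhga12, with a log2 difference higher by 0.90 ± 0.30 in hair follicle-like cells. DESeq2 also called 0 members in both comparisons, though it gave an adjusted p for only 2 and 16 members. With no filter on low counts, Pcdhgc5 was called in the second comparison (-1.42 in hair follicle-like relative to basal-like cells). Its difference was -1.85 without TKO replicate 2. With doublets kept, Pcdhb21 was called there (2.39).

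By class, the summed gamma A and B level was 18.6 and 16.46 CPM in Ctrl and 49.6 and 57.3 CPM in TKO hair follicle-like cells, a 3.05-fold difference of the means. It was 14.99 and 11.7 against 29.2 and 35.8 CPM in basal-like cells (2.44-fold) and 12.2 and 10.2 against 17.9 and 22.1 CPM in differentiating-like cells (1.79-fold). The summed beta level in Ctrl was 25.7 and 24.5 CPM in hair follicle-like, 16.7 and 14.5 CPM in basal-like and 11.6 and 14.2 CPM in differentiating-like cells. In TKO it was 7.82 and 10.6, 4.02 and 4.31, and 2.50 and 3.27 CPM, in that order. The keratinocytes of no named class, 165 and 209 in Ctrl and 136 and 122 in TKO, had 22.5 and 22.2 against 4.77 and 6.62 CPM for beta and 16.1 and 14.2 against 34.0 and 35.1 CPM for gamma A and B. They do not form 1 kind of cell: 1 of their clusters, led by Psca, Mal, Upk1b and Krt4, held 1 and 2 Ctrl but 36 and 26 TKO cells, so the genotypes differ there in their mix of cells. Both families had non-overlapping genotypes in every class of keratinocyte shown.

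Because TKO keratinocytes had more UMIs per cell, the share of cells with a UMI was compared after each cell had been thinned to 5000 UMIs. In basal-like cells a beta UMI was found in 8.40% (exact 95% binomial interval 6.95 to 10.1%) and 7.21% (5.96 to 8.64%) of Ctrl cells, and in 2.65% (1.71 to 3.92%) and 2.31% (1.40 to 3.59%) of TKO cells. A gamma A or B UMI was found in 7.16% (5.81 to 8.71%) and 5.96% (4.82 to 7.27%) of Ctrl and in 14.5% (12.3 to 17.0%) and 15.7% (13.3 to 18.4%) of TKO cells. The shares moved with the levels, in opposite directions for the 2 families, and the Ctrl and TKO intervals did not overlap for either. In hair follicle-like cells the gamma A and B share was 6.53 and 6.94% in Ctrl and 21.5 and 21.8% in TKO. The intervals cover counting error only.

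For immune-like cells, which served as the background, a beta UMI was found at 5000 UMIs in 0 of 84 and 1 of 124 Ctrl cells and in 0 of 278 and 0 of 417 TKO cells, with an upper limit of 4.30% and of 1.32 and 0.881% for the libraries at 0. Their gamma A and B share was 2.38 and 0.806% in Ctrl and 1.44 and 1.92% in TKO. Median UMIs per cell were 19847.5, 14454, 19791 and 19387 in the immune-like cells of Ctrl replicates 1 and 2 and TKO replicates 1 and 2, and 20674, 17297, 30124 and 27270.0 in the basal-like cells. In immune-like cells the medians of the genotypes thus overlapped, with Ctrl replicate 2 the lowest. In basal-like cells both TKO medians lay above both Ctrl medians. Without thinning, a gamma A or B UMI was found in 23.5 and 16.7% of Ctrl and 50.9 and 54.1% of TKO basal-like cells, and a beta UMI in 25.7 and 20.1% against 10.6 and 9.11%. UMIs of at least 2 different gamma A or B genes were found at 5000 UMIs in 0.778 and 0.132% of Ctrl and 2.21 and 1.34% of TKO basal-like cells.

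**Figure D4:**
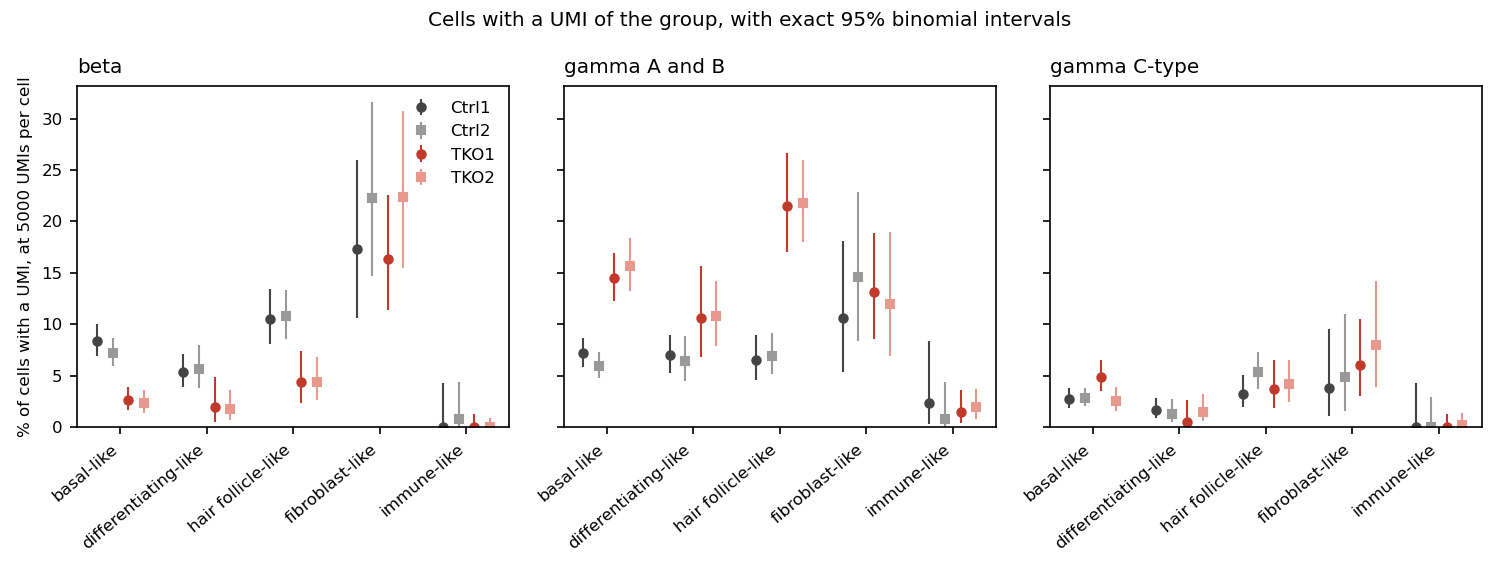
Percent of cells with at least 1 UMI of the beta, gamma A and B, or gamma C-type genes after thinning to 5000 UMIs per cell (y axis), by class and library (x axis), with exact 95% binomial intervals as bars. Basal-like TKO cells stand at 2.65 and 2.31% for beta and 14.5 and 15.7% for gamma A and B, and immune-like cells stay below 3% throughout.

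Genes that are no members but lie among the clusters were examined for the same comparison. Of 27 such genes, on either strand, 8 were tested in keratinocytes and 2 rose, both long non-coding RNAs at the gamma cluster. Gm26672 is encoded on the minus strand, from 37901304 to 37873452, opposite to the first exons of the genes from Pcdhgb6 to Pcdhga12. It had 166 and 133 UMIs in Ctrl and 1268 and 1599 UMIs in TKO keratinocytes, or 2.43 and 2.32 against 24.3 and 29.5 CPM (3.49 ± 0.18, adjusted p = 0.00246). It rose in basal-like (3.73 ± 0.23, adjusted p = 0.00109), differentiating-like (3.41 ± 0.24, adjusted p = 0.00559) and hair follicle-like cells (3.43 ± 0.19, adjusted p = 0.000225). 10x 3' counts are read by strand, but the study's setting was not given in the sources used here.

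The other long non-coding RNA, 3222401L13Rik, runs on the plus strand from 37777160 to 37794795 and ends just before Pcdhga1 begins. It had 33 and 25 UMIs in Ctrl and 289 and 344 UMIs in TKO keratinocytes (3.67 ± 0.25, adjusted p = 0.00378), rose in basal-like (3.33 ± 0.29, adjusted p = 0.0031) and hair follicle-like cells (4.54 ± 0.40, adjusted p = 0.00116) and was not tested in differentiating-like cells. Both long non-coding RNAs were still called in each of these classes when any 1 library was left out. Taf7, which encodes a subunit of the general transcription factor TFIID, starts on the opposite strand within the first bases of 3222401L13Rik. It had 32.8 and 36.3 CPM in Ctrl and 31.6 and 26.6 CPM in TKO (-0.26 ± 0.12, adjusted p = 0.24). Pcdhga1 itself had 15 and 13 UMIs in Ctrl and 23 and 14 UMIs in TKO (0.62 ± 0.43, adjusted p = 0.437).

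Outside the clusters, within 500 kb on either side, 29 of 44 genes were tested in keratinocytes and 1 rose. It was Pfdn1, which encodes a subunit of the prefoldin chaperone, with 96.9 and 99.9 CPM in Ctrl and 147 and 133 CPM in TKO (0.50 ± 0.09, adjusted p = 0.0363). Its start lies 1207 kb upstream of the gamma cluster, beyond the alpha cluster. In basal-like cells Sra1 rose as well (0.53 ± 0.12, adjusted p = 0.045). In keratinocytes the call of Pfdn1 was lost without either Ctrl library (0.50 in each) or without TKO replicate 1 (0.46). In basal-like cells Sra1 lost its call in each of the 4 fits that left out 1 library. None of the flanking genes fell, and the median log2 difference of the 29 was -0.01. Ankhd1, Diaph1 and Ndufa2, among the flanking genes with the most UMIs, had log2 differences of -0.18, -0.12 and 0.16.

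**Figure D5:**
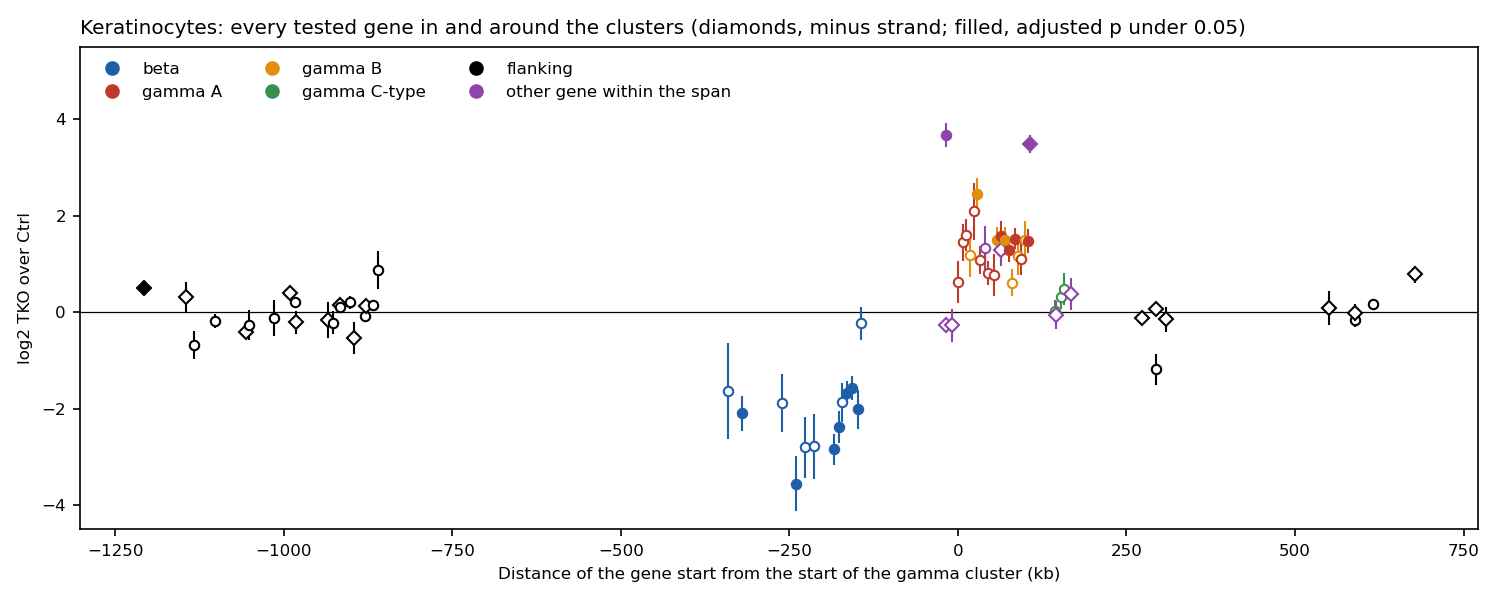
Log2 difference between TKO and Ctrl keratinocytes (y axis, bars are standard errors) for every tested gene in and around the clusters, by the distance of its start from the start of the gamma cluster in kb (x axis). Diamonds are minus strand genes and filled symbols have an adjusted p under 0.05. Values lie between -3.56 and -0.23 for beta, 0.61 and 2.45 for gamma A and B, and 0.03 and 0.48 for gamma C-type genes. Those of the flanking genes lie between -1.19 and 0.88 and so overlap these ranges in part.

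Non-clustered protocadherins, adhesion genes of the same superfamily outside the 3 clusters, included Pcdh1 and Pcdh12 further along chromosome 18, both also counted among the flanking genes. Of 12 such genes 10 were tested in keratinocytes, 1 rose and 2 fell. Pcdh9 fell from 201 and 202 CPM in Ctrl to 78.4 and 72.7 CPM in TKO (-1.43 ± 0.09, adjusted p = 0.00303). Pcdh20 fell from 1.93 and 2.16 CPM to 0.555 and 0.628 CPM (-1.80 ± 0.27, adjusted p = 0.0239). Pcdh15, known for its role in the hair cells of the inner ear, rose from 0.704 and 0.506 CPM to 2.49 and 3.58 CPM (2.31 ± 0.34, adjusted p = 0.0236). Pcdh7, Pcdh18, Pcdh19 and Pcdh1 were not called, with log2 differences of 0.43, 0.03, 0.47 and 0.08. In keratinocytes Pcdh9 was still called when any 1 library was left out, whereas Pcdh15 and Pcdh20 were not called without Ctrl replicate 1 (2.59 and -1.86) or Ctrl replicate 2 (2.08 and -1.74).

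Of 18 genes for factors that shape or silence clustered protocadherin promoters, all 18 were tested in keratinocytes, 2 rose and none fell. Atf7ip, which encodes a partner that stabilises Setdb1, rose from 86.5 and 71.2 CPM in Ctrl to 207 and 247 CPM in TKO (1.51 ± 0.16, adjusted p = 0.0105). Dnmt3b, a de novo DNA methyltransferase, rose from 8.24 and 9.61 CPM to 20.5 and 15.6 CPM (0.999 ± 0.17, adjusted p = 0.0349). Ctcf had 148 and 153 CPM in Ctrl and 184 and 169 CPM in TKO (0.22 ± 0.09, adjusted p = 0.199) and Smchd1, a repressor known to act on these clusters, had 128 and 139 against 164 and 145 CPM (0.19 ± 0.09, adjusted p = 0.282). The cohesin gene Stag1 and the cohesin loader Nipbl were likewise not called, at 0.09 and -0.13. Among 11 genes for partners of the protocadherin tails, 2 rose and none fell: Ptk2b, a focal adhesion kinase relative, from 9.70 and 8.88 CPM to 17.9 and 25.2 CPM (1.20 ± 0.22, adjusted p = 0.0371), and Fyn, a Src family kinase, from 11.0 and 12.3 CPM to 28.9 and 22.9 CPM (1.13 ± 0.15, adjusted p = 0.0176). Ptk2, which encodes focal adhesion kinase, was not called (-0.06 ± 0.11, adjusted p = 0.773). In keratinocytes Dnmt3b, Ptk2b and Fyn lost their call without either Ctrl library, Dnmt3b also without TKO replicate 1, and Atf7ip without Ctrl replicate 2, with log2 differences of 0.83 to 1.36 in these fits.

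The promoters were compared for a feature that the choice of genes had not used. In windows from 250 bases before to 50 bases after each annotated start, taken from the GRCm39 genome, the letters CGCT occurred on either strand in 55 of the 58 members (94.8%). They form the core of the element conserved among clustered protocadherin promoters. They also occurred in 62.4% of the 21631 protein-coding genes with such a window. The windows of all 7 lowered beta genes and of 6 of the 7 raised gamma genes held them, and Pcdhb22, Pcdhga12 and Pcdhac2 were the members without a match. CpG sites numbered 5 per window in the median beta gene, 6 in the median gamma A gene and 9 in the median gamma B gene, against 8 over all protein-coding genes. Pcdhgc3 had 22 CpG sites, the most of the members. Annotated starts may differ from the starts used in skin, and a match is a description of these letters and not of bound factors.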

How the data were processed

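Libraries were prepared by the authors with the 10x 3' v3 kit, and raw UMI counts per gene and cell were deposited as filtered matrices, without normalization. Per the file headers Cell Ranger 7.1.0 produced these on GRCm39, though another version stands in the methods. The annotation release and the handling of intronic reads were not given in the sources used here. The age follows the labels (E16.5); the study's litter list gives another day.

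Cells with at least 2000 genes and under 10% mitochondrial UMIs were kept (11221 of 19789 barcodes). The highest-scoring cells by Scrublet (scanpy 1.11.5) were removed at 0.8% per 1000 barcodes, 457 in all. After 30 principal components of 2000 genes were aligned by Harmony, Leiden clusters (resolution 1) were named from markers, at least 3 detected, with the suffix "-like". Of the 10764 cells left, 9184 were keratinocytes, and these were clustered again without the 1353 genes called between genotypes. This gave 4563 basal-like, 1932 differentiating-like, 1973 hair follicle-like and 84 cells in a Merkel-like cluster, and 632 in clusters that met no name.

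Counts were summed per library and class (52251903 to 68217471 UMIs in keratinocytes) and tested over all genes with the quasi-likelihood test of edgeR 4.0.16 (R 4.3.3). Genotype was the sole term, libraries were scaled by TMM and genes were filtered by filterByExpr. Genes with an adjusted p (Benjamini-Hochberg) under 0.05 were called. The adjusted p-values given come from this test unless DESeq2 1.42.0 is named. Each library was taken as 1 sample; per the study's methods each came from cells of a separate embryo, so p-values measure the spread between embryos of a genotype. Scripts were tested on simulated data. Full values were given for members called in keratinocytes or any class and for the 3 members of each cluster with the most UMIs, and other members by counts and ranges; other lists name called genes and up to 4 more. Members and lists were chosen with earlier results of these data known. Alternatives covered size factors, DESeq2, the filter, each library left out, a replicate block, thinning to 5000 UMIs per cell, doublets kept, at least 3000 genes, unaligned components and Leiden resolutions of 0.5 and 2, and, added after seeing the data, the Merkel-like or the haemoglobin-led cluster left out.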

Additional observations from a re-analysis of the deposited data

How the results depend on the processing

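In keratinocytes, 7 members raised and 7 lowered became 2 and 4 with no expression filter and 1 and 2 at 5000 UMIs per cell, a setting that leaves fewer UMIs. Fits that leave out 1 library leave a group of 1, so their counts of called members are not given. In basal-like cells, 5 raised became 2 with no expression filter, 1 at 5000 UMIs per cell and 9 at Leiden resolution 0.5, and 5 lowered became 1 at 5000 UMIs per cell and 1 with uncorrected components. Leaving out each library, Pcdhb19 ranged from -2.06 to -1.45 there. In differentiating-like cells, 0 lowered became 6 with no expression filter and 1 with DESeq2. In hair follicle-like cells, 8 raised became 14 with no expression filter, 5 with DESeq2, 3 at 5000 UMIs per cell and 4 at Leiden resolution 0.5. There 5 lowered became 2 with DESeq2, 0 at 5000 UMIs per cell, 3 with doublets kept, 1 with uncorrected components, 1 at Leiden resolution 0.5 and 2 at Leiden resolution 2. Leaving out each library, Pcdhb19 ranged from -1.52 to -1.26 in that class. The 0 members that differed between hair follicle-like and basal-like cells became 1 (Pcdhgc5) with no expression filter and 1 (Pcdhb21) when doublets stayed in. For the other settings, apart from leaving out a library and the blocks described next, the counts stayed within 1.5 times those reported. The share of all genes called under each alternative is not set beside these counts, and the cause of these changes was not tested.

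The labels give no pairing, and samples with the same replicate number deviated oppositely (r = -0.26 in keratinocytes and -0.11 in hair follicle-like cells). With the replicate number as a block, keratinocytes had 1 raised and 3 lowered, basal-like cells 5 and 5, differentiating-like cells 0 and 0 and hair follicle-like cells 6 and 4. With crossed pairing, chosen after seeing the data, the block gave 10 and 10, 6 and 5, 0 and 1, and 10 and 5.

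Of 1506 values of single genes under alternatives, 8 changed sign, none of a gene called in that class. Leaving out each library, Pcdhgc3 ranged from -0.02198 (without TKO replicate 2) to 0.1085 in keratinocytes, from -0.2898 to 0.03805 (without TKO replicate 1) in basal-like cells and from -0.1493 (without TKO replicate 1; -0.06264 without Ctrl replicate 1) to 0.2106 in hair follicle-like cells. It turned to 0.09883 in basal-like cells at 5000 UMIs per cell and to -0.08557 in hair follicle-like cells at Leiden resolution 0.5, and to -0.01141 in keratinocytes without the haemoglobin-led cluster. Pcdhgb5 ranged from -0.2127 (without TKO replicate 2) to 0.4935 in differentiating-like cells. Adding overlapping genes of the same strand moved the log2 ratio of the summed levels from -1.77 to -1.77 for beta, from 1.32 to 1.32 for gamma A and B and from 0.24 to 0.28 for gamma C-type genes, and the alpha sum from 22 to 25 UMIs. At this depth the alpha genes and 9 beta genes could not be tested, and the differentiating-like cells of TKO replicate 1 held 6806680 UMIs.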
